A study of Homo sapiens with 8 samples.

Results

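Mitochondrial protein import and cristae genes encode the machinery that brings proteins made in the cytosol into the mitochondrion and the proteins that shape its inner membrane. The list held 38 genes, chosen by name and role and found on the arrays by gene name or RefSeq accession. To count as measured, a gene needed at least 1 probe that exceeded background clearly on each of the 8 arrays, and the brightest of these probes represented it. By this rule 35 of the 38 were measured, among 10956 measured genes in all. TIMM13, MTX3 and PMPCB were not measured, because their best probes were well above background on only 5, 4 and 4 of the 8 arrays. The mRNAs were followed in A431 cells, a human cutaneous squamous cell carcinoma line, at 24 h after transfection with 10 nM of a negative control miRNA (miR-NC) or of miR-634. AGO2, the Argonaute protein that carries miRNAs to their target mRNAs, was pulled down with an antibody (RNP immunoprecipitation, RIP), and the RNA bound to it was compared with the input on single-color Agilent arrays. Both kinds of cells gave an input group and a RIP group, and each of these 4 groups had 2 arrays. The input was total RNA per the study's methods, whereas the antibody named in the labels of these arrays is normal rabbit IgG, and nothing says whether the 2 arrays of a group came from separate transfections. The p-values therefore measure the spread between these arrays, which may be technical. A431 is a single line, no other line was on the arrays, and miR-634 was supplied at a level set by the transfection.

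Nearly all mitochondrial proteins are encoded in the nucleus. They cross the outer membrane through the TOM complex and are then passed to the sorting and assembly machinery of the outer membrane, to the small TIM chaperones of the intermembrane space, or to the TIM23 and TIM22 translocases of the inner membrane. The prohibitins and the MICOS complex organize the inner membrane, and MICOS holds the junctions at which cristae open.

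The miRNA that was transfected is shown first because every change below is between cells with and without it. The mature sequence, from RefSeq (GRCh38.p14, chr17:66787132-66787153, plus strand), has its seed, bases 2 to 8, in capitals.
hsa-miR-634: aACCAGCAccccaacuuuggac
The seed pairs with UGCUGGU in an mRNA, and hsa-miR-634 was the only 1 of 2370 human mature miRNAs in the RefSeq table with this seed. Sites for it in the member mRNAs were not searched here.

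Levels are log2 intensities from which the 75th percentile of each array was subtracted. The share of spots well above background was between 45.6% and 45.8% for the input, 33.6% and 34.5% for the miR-NC RIP and 40.0% on both miR-634 RIP arrays, and no spot was saturated. The median SD of log2 levels per gene was between 0.04 and 0.06 (n = 2 arrays in each group). All 10 squamous epithelial markers, among them EGFR and KRT5, were well above background on every array. Among the markers of other cells, VWF was so on every array, PDGFRB and PMEL on 6, PTPRC and COL1A1 on 4, and CD3E, PECAM1, COL1A2, MLANA, TYR and ALB on none. All directions below are relative to the 75th percentile of each array. Scaling on the spike-in RNAs instead moved the median change of enrichment of all genes from -0.22 to 0.87, and the members' median lay 0.04 above that of all genes under either scaling.

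RIP/input in miR-NC cells compares the level of each mRNA in the AGO2 RIP with that in the input, relative to other mRNAs, without added miR-634. No IgG RIP group was compared here, so RNA that came down without AGO2 may be part of the ratio. In miR-NC cells, the RIP level exceeded the input level for 10 of the 35 members and was below it for 17 (limma, adjusted p under 0.05), against 33.6% and 45.3% of all measured genes. The members' shares were 28.6% and 48.6%. Their median log2 RIP/input was -0.21, beside -0.12 over all genes. With spike-in scaling, all 35 members were lower in the RIP, as were 10726 of the 10956 measured genes.

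TIMM17B, a subunit of the TIM23 translocase, had the highest RIP/input of the members in miR-NC cells. Its log2 level was 2.78 on both miR-NC input arrays and 4.73 and 4.82 on the miR-NC RIP arrays. The RIP arrays were therefore both far above the input arrays, by 2.0 on the log2 scale (SE 0.05, adjusted p = 5.01e-07), or -0.47 with spike-in scaling. Next came TIMM8B, an intermembrane space chaperone, at 1.41, and TOMM34, a cytosolic factor that meets precursor proteins before import, at 1.3.

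TOMM22, the central receptor of the TOM complex, had the lowest. Its levels were 0.74 and 0.78 on the miR-NC input arrays and -0.65 and -0.70 on the miR-NC RIP arrays. They were 0.70 and 0.68 on the miR-634 input arrays and -0.68 and -0.76 on the miR-634 RIP arrays. Each pair of RIP arrays lay below each pair of input arrays by about the same amount, at a log2 RIP/input of -1.43 with miR-NC and -1.41 with miR-634, and the change of enrichment was 0.02 (SE 0.07, adjusted p = 0.802). TIMM9, an intermembrane space chaperone, was also low, at -1.2 in miR-NC cells.

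In miR-634 cells, 12 members were higher in the RIP than in the input and 18 were lower, 34.3% and 51.4%, against 36.1% and 48.3% of all genes, and the median was -0.32, beside -0.17 over all genes (with spike-in scaling, 5 were higher and 30 lower). The members ranged from -1.68 for TIMM21 to 3.07 for TIMM17A, where the range in miR-NC cells had been -1.43 to 2.0. Their SD was 1.24, beside 0.73 in miR-NC cells, and that of all genes also was larger, at 1.12 beside 0.87. Members called below the input in miR-NC cells and above it in miR-634 cells, with the change called too, numbered 3 (8.57%), against 8.45% of all genes, and 2 (5.71%) were called the other way around, against 6.1%.

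**Figure D1:**
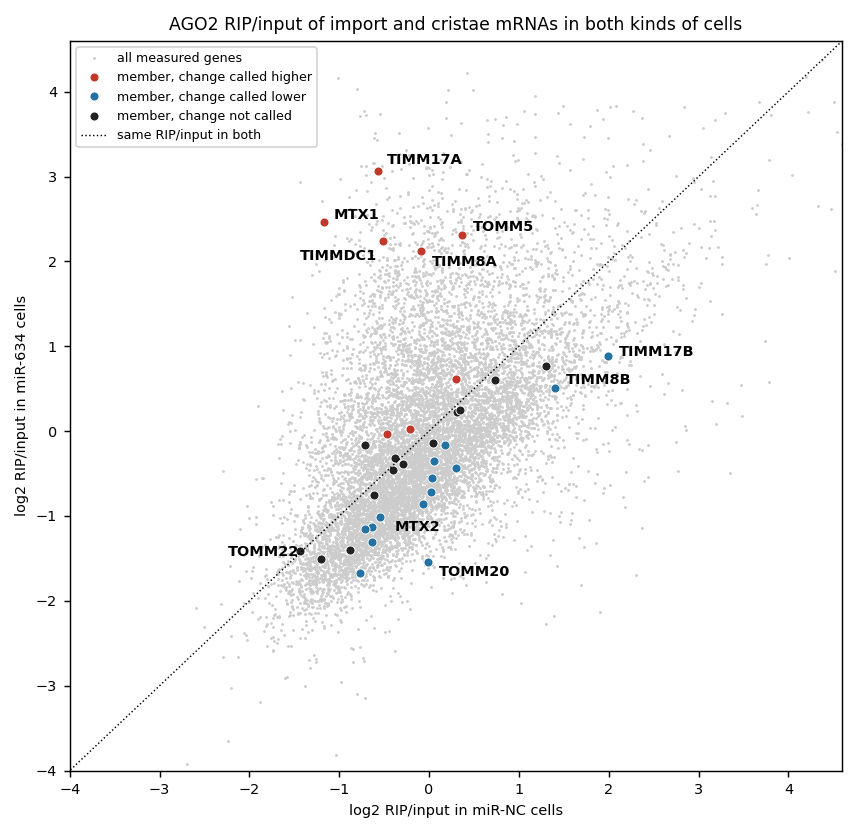
Log2 RIP/input with miR-NC (horizontal) and with miR-634 (vertical) for all 10956 measured genes (gray; 9 lie outside the axes) and the 35 members (colored by the call on the change of enrichment); the dotted line marks equal RIP/input. TIMM17A, MTX1, TIMMDC1, TIMM8A and TOMM5 lie far above the line, and TOMM20 and TIMM17B lie below it. Spike-in scaling shifts all points together, by a fixed amount along each axis, and puts TIMM17B near the line.

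The main comparison was the change of enrichment, which is the log2 RIP/input with miR-634 less the log2 RIP/input with miR-NC. Enrichment rose for 8 of the 35 members (22.9%) and fell for 14 (40%), and 13 were not called. Over all measured genes, 28.1% rose and 43.3% fell. The members' shares lay near these, and their median change of -0.18 lay near the all-gene median of -0.22. The members were spread more widely, from -1.53 to 3.64, with an SD of 1.24, beside 0.94 over all genes. With spike-in scaling 25 members rose and 0 fell, against 7597 and 205 of the 10956 genes. Of the 35 members, 5 rose more than 2-fold and 2 fell more than 2-fold (14.3% and 5.71%), against 13.2% and 8.32% of all genes. The 5 large rises were separated from the rest, since the next called rise, that of TIMM22, was 0.44.

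**Figure D2:**
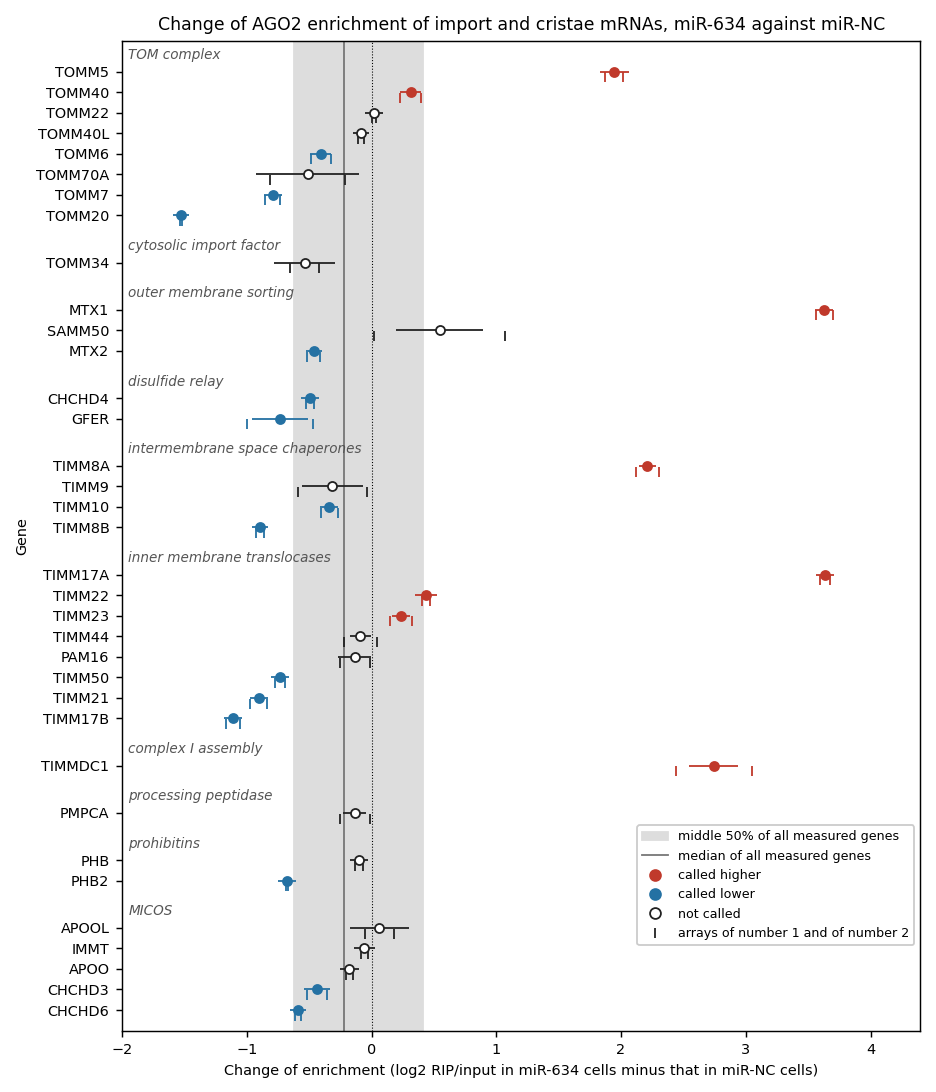
Change of enrichment of each measured member on the log2 scale, grouped by role. Points are the means over arrays with their SE (limma), ticks the values from the arrays of each replicate number, filled points the calls at an adjusted p under 0.05, and the gray band the middle 50% of all measured genes with their median of -0.22. The 5 points at the right are TIMM17A, MTX1, TIMMDC1, TIMM8A and TOMM5, at 1.95 to 3.64; with spike-in scaling all points move right by the same amount, and of the 14 called falls only those of TOMM20 and TIMM17B stay below 0, neither of them called.

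TIMM17A, one of a pair of alternative subunits that form the core of the TIM23 translocase with TIMM23, had the largest rise among the members. Its log2 level was 2.93 and 2.88 on the miR-NC input arrays and 2.32 and 2.34 in the miR-NC RIP. In miR-634 cells it was 1.85 and 1.79 on the input arrays and 4.92 and 4.85 on the RIP arrays. The input arrays of miR-634 cells were the lowest of the 4 groups and their RIP arrays the highest, with no overlap between any groups. Enrichment went from -0.57 to 3.07, a change of 3.64 or 12.4-fold (SE 0.07, adjusted p = 6.23e-07), and 27 of the 10956 genes had a larger one. The RIP level rose by 2.56, and the input level fell by 1.08 on the log2 scale (SE 0.05, adjusted p = 0.000227).

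MTX1, metaxin 1, which works with the outer membrane sorting machinery, was close behind. Its level was 0.0021 and 0.02 on the miR-NC input arrays, -1.10 and -1.21 in the miR-NC RIP, -0.31 and -0.27 on the miR-634 input arrays and 2.15 and 2.20 on the miR-634 RIP arrays. The miR-NC RIP arrays were thus the lowest of the 4 groups and the miR-634 RIP arrays the highest, with no overlap. Enrichment went from -1.17 to 2.46, a change of 3.63 or 12.4-fold (SE 0.07, adjusted p = 6.26e-07).

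TIMMDC1, an assembly factor of respiratory complex I that belongs to the same protein family as TIMM17 and TIMM23, changed by 2.74, or 6.70-fold (SE 0.20, adjusted p = 4.01e-05). Its level was 2.65 and 3.10 on the miR-NC input arrays, 2.43 and 2.30 in the miR-NC RIP, 2.42 and 2.38 on the miR-634 input arrays and 4.65 and 4.63 on the miR-634 RIP arrays. The miR-634 RIP arrays stood above all others, while the miR-NC input arrays differed from each other by more than any other pair. The arrays numbered 1 gave a change of 2.44 and those numbered 2 gave 3.05.

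TIMM8A, the small TIM chaperone that is mutated in deafness-dystonia syndrome, changed by 2.21, or 4.63-fold (SE 0.07, adjusted p = 1.47e-06). Its levels were -0.20 and -0.25 in the miR-NC input, -0.33 and -0.31 in the miR-NC RIP, -0.41 and -0.34 in the miR-634 input and 1.77 and 1.71 in the miR-634 RIP. The miR-634 RIP arrays alone were high. A second TIMM8A probe, designed on another transcript, gave a change of 0.47, so that the size of the rise depended on the probe.

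TOMM5, a small subunit of the TOM complex, changed by 1.95, or 3.86-fold (SE 0.12, adjusted p = 1.88e-05). Its levels were 2.91 and 2.95 in the miR-NC input, 3.34 and 3.24 in the miR-NC RIP, 2.45 and 2.51 in the miR-634 input and 4.91 and 4.68 in the miR-634 RIP. TOMM5 was the only 1 of the 5 whose RIP level was above the input already in miR-NC cells, at 0.36 (adjusted p = 0.00594; -2.11 with spike-in scaling). These 5 rises were called whichever array was left out and also with spike-in scaling, where they ran from 3.03 for TOMM5 to 4.72 for TIMM17A. TIMM17A, MTX1, TIMMDC1 and TOMM5 each had only 1 probe, so their rises could not be compared between probes.

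The remaining called rises were small. TIMM22, the channel of the carrier translocase, rose by 0.44 (adjusted p = 0.00442), TOMM40, the channel of the TOM complex, by 0.31 (adjusted p = 0.0165), and TIMM23, the channel of the presequence translocase, by 0.24 (adjusted p = 0.0215). TIMM23 lost its call when any 1 of 5 arrays was left out (both miR-NC input arrays, both miR-634 input arrays or miR-NC RIP replicate 2; adjusted p up to 0.0728), with normexp and quantile normalization (0.0623) or with no filter on dim probes (0.0605), and TOMM40 lost it without miR-NC input replicate 1 or miR-634 input replicate 1 (up to 0.0609). TIMM23 has a near-identical copy, TIMM23B, and its probes may bind both. The changes of these 3 channels were thus all far below those of TIMM17A and TOMM5, subunits of the same complexes as TIMM23 and TOMM40. The difference between subunits was not tested.

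Among the falls, TOMM20, the receptor for presequences on the TOM complex, had the largest. Its levels were 2.33 and 2.37 in the miR-NC input, 2.32 and 2.36 in the miR-NC RIP, 2.46 and 2.48 in the miR-634 input and 0.93 and 0.94 in the miR-634 RIP. Input and RIP levels overlapped in miR-NC cells, and only the miR-634 RIP arrays were low. The input change was 0.12 and not called, or -0.06 with spike-in scaling. It was called with the mean of the probes (0.28), normexp and quantile normalization (0.19), quantile normalization (0.17) and an intensity trend (0.12). A second TOMM20 probe gave a log2 RIP/input of 0.29 in miR-NC cells and an input change of 0.45. Enrichment changed by -1.53, or 0.347-fold (SE 0.06, adjusted p = 3.62e-06), and 256 genes had a larger fall. With spike-in scaling the change was -0.45 and was not called (adjusted p = 0.112).

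TIMM17B, which was the highest in miR-NC cells, fell by 1.11 on the log2 scale (SE 0.07, adjusted p = 2.17e-05). Its miR-634 arrays read 2.67 and 2.71 in the input and 3.57 and 3.58 in the RIP. The RIP level stayed above the input level, at 0.88, but below that of miR-NC cells. With spike-in scaling the change was -0.03.

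TIMM21, which links the TIM23 translocase to respiratory chain assembly, changed by -0.91 (SE 0.07, adjusted p = 6.42e-05), and by 0.18 with spike-in scaling. Its levels were 0.69 and 0.68 in the miR-NC input, -0.08 and -0.09 in the miR-NC RIP, 0.62 and 0.51 in the miR-634 input and -1.12 and -1.09 in the miR-634 RIP. RIP arrays were below input arrays in both kinds of cells, and more so with miR-634.

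TIMM8B, a relative of TIMM8A, changed by -0.89 (SE 0.06, adjusted p = 3.36e-05), and by 0.19 with spike-in scaling. Its levels were 2.54 and 2.55 in the miR-NC input, 3.98 and 3.92 in the miR-NC RIP, 2.49 and 2.50 in the miR-634 input and 3.0 and 3.01 in the miR-634 RIP. It stayed higher in the RIP than in the input in miR-634 cells, by 0.51 (-0.87 with spike-in scaling).

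TOMM7, a small subunit that regulates the stability of the TOM complex, changed by -0.79 (SE 0.07, adjusted p = 0.000103), and by 0.29 with spike-in scaling. Its levels were 5.86 on both miR-NC input arrays, 5.79 and 5.80 in the miR-NC RIP, 5.75 on both miR-634 input arrays and 4.95 and 4.84 in the miR-634 RIP. The miR-634 RIP arrays were the lowest. In miR-NC cells its log2 RIP/input was -0.06 and not called, but it was called at -0.49 with normexp and quantile normalization, at -0.52 with quantile normalization and at -0.17 with the mean of the probes.

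Taken by role, rises and falls were mixed in the TOM complex and at the inner membrane. There was no called rise among the 7 prohibitins and MICOS proteins on the list, against 28.1% of all measured genes, and this difference was not tested. Outside the list, MICOS10 was called higher, at 0.25 (limma, adjusted p = 0.0123), and MICOS13 was called lower, at -0.56. With spike-in scaling PHB, IMMT, APOO, APOOL and CHCHD3 were called higher, at 0.98, 1.03, 0.91, 1.14 and 0.65, as were 7597 of the 10956 genes. In the TOM complex, 2 of 8 members rose (TOMM5, TOMM40) and 3 fell, namely TOMM20, TOMM7 and TOMM6, a small subunit that fell by 0.41 on the log2 scale (adjusted p = 0.00478; 0.68 with spike-in scaling). The call on TOMM6 was lost with the 75th percentile taken over all probes (adjusted p = 0.0645). TOMM22 and TOMM40L, a second form of the channel (-0.08, adjusted p = 0.262), were not called, nor was TOMM70A, the receptor for carrier precursors, at -0.51 (SE 0.41, adjusted p = 0.299). The 2 miR-NC RIP arrays of TOMM70A read -4.40 and -3.53, and the change was -0.95 and called without replicate 1 of this group but -0.08 without replicate 2. TOMM34 changed by -0.54 (adjusted p = 0.0908), and it was called without miR-NC RIP replicate 1 (-0.78) or miR-NC input replicate 2 (-0.71), but was at -0.30 without miR-NC RIP replicate 2 and at -0.36 without miR-NC input replicate 1.

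At the outer membrane sorting machinery, MTX1 rose and MTX2, its partner, changed by -0.46 (adjusted p = 0.000906; 0.62 with spike-in scaling). SAMM50, the barrel that inserts other barrel proteins, changed by 0.55 and was not called (SE 0.35, adjusted p = 0.201). Its miR-NC RIP arrays read 0.23 and -0.63, and the change was 0.98 and called without miR-NC RIP replicate 1 but 0.12 without replicate 2.

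In the intermembrane space, both members of the disulfide relay fell (and were above 0 with spike-in scaling). GFER had the lowest mean level of the measured members, at -4.02. The arrays numbered 1 gave a GFER change of -1.0 and those numbered 2 gave -0.47. CHCHD4, which oxidizes incoming cysteine-rich proteins, changed by -0.49 (adjusted p = 0.000967; 0.59 with spike-in scaling), and GFER, which reoxidizes CHCHD4, by -0.73 (SE 0.22, adjusted p = 0.0228; 0.35 with spike-in scaling). GFER lost its call without miR-NC input replicate 2, either miR-634 input array or miR-634 RIP replicate 1 (adjusted p up to 0.07), with normexp and quantile normalization (-0.33, adjusted p = 0.0865) and with no filter on dim probes (0.0531). Of the 4 measured chaperones, which are substrates of this relay, TIMM8A rose, TIMM8B fell, TIMM10 changed by -0.34 (adjusted p = 0.00554; 0.75 with spike-in scaling) and TIMM9, its partner, by -0.31 (adjusted p = 0.283). The TIMM10 call was lost with the 75th percentile over all probes (adjusted p = 0.15), and TIMM9 was at -0.61 and called without miR-634 RIP replicate 1 but at -0.02 without replicate 2.

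At the inner membrane translocases, 3 of 8 members rose (TIMM17A, TIMM22, TIMM23) and 3 fell (TIMM17B, TIMM21, TIMM50). TIMM50, the receptor of the TIM23 complex, changed by -0.73 (adjusted p = 0.000149; 0.35 with spike-in scaling). Its RIP/input went from 0.29 in miR-NC cells to -0.44 in miR-634 cells. TIMM44, the anchor of the import motor on the matrix side, was not called, at -0.09 (adjusted p = 0.363), nor was PAM16, a regulator of the motor chaperone, at -0.13 (adjusted p = 0.385). PAM16 was at -0.28 and called without miR-NC input replicate 2, and at 0.01 without replicate 1. PMPCA, a subunit of the peptidase that removes presequences, changed by -0.13 (adjusted p = 0.228).

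Among the proteins that shape the inner membrane, PHB2 changed by -0.68 (adjusted p = 0.000218) and its partner PHB by -0.10 (adjusted p = 0.25). Of the 5 MICOS members, CHCHD6 changed by -0.59 (adjusted p = 0.000259) and CHCHD3 by -0.44 (adjusted p = 0.00823), both of them regulators of the complex that bind IMMT (with spike-in scaling, PHB2, CHCHD6 and CHCHD3 were at 0.41, 0.49 and 0.65). IMMT, the core of MICOS, was at -0.06 (adjusted p = 0.550), APOO at -0.18 (adjusted p = 0.0852) and APOOL at 0.06 (SE 0.24, adjusted p = 0.828), and APOO was at -0.23 and called without miR-634 RIP replicate 1 but at -0.12 without replicate 2.

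Of the 7 pairs of related genes on the list, 3 had opposite calls: TIMM17A and TIMM17B, TIMM8A and TIMM8B, and MTX1 and MTX2. The pairs were picked by hand among members chosen with earlier results known. Over all measured genes 28.1% rose and 43.3% fell, so unrelated pairs can also have opposite calls, and their share was not computed. The difference within a pair is not moved by any scaling of whole arrays. TIMM17A changed more than TIMM17B by 4.73 (arrays numbered 1) and 4.77 (arrays numbered 2). MTX1 changed more than MTX2 by 4.07 and 4.11, and TIMM8A more than TIMM8B by 3.23 and 2.98. With spike-in scaling the second gene of each pair was at -0.03, 0.62 and 0.19, while the first was at 4.72, 4.71 and 3.29, so that a wide gap remained, but MTX2 and TIMM8B were above 0 and TIMM17B was no longer called. In log2 RIP/input, TIMM17A lay below TIMM17B by 2.57 in miR-NC cells and above it by 2.18 in miR-634 cells. TIMM8A lay below TIMM8B by 1.5 in miR-NC cells and above it by 1.61 in miR-634 cells. MTX1 lay below MTX2 by 0.62 and above it by 3.47. The miR-NC gap is part of the difference in change, because the change is the miR-634 value less the miR-NC value. In the other 4 pairs the mean difference was much smaller, at 0.40 for TOMM40 minus TOMM40L, 0.58 for PHB minus PHB2, 0.15 for CHCHD3 minus CHCHD6 and -0.24 for APOO minus APOOL. These differences were not tested.

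**Figure D3:**
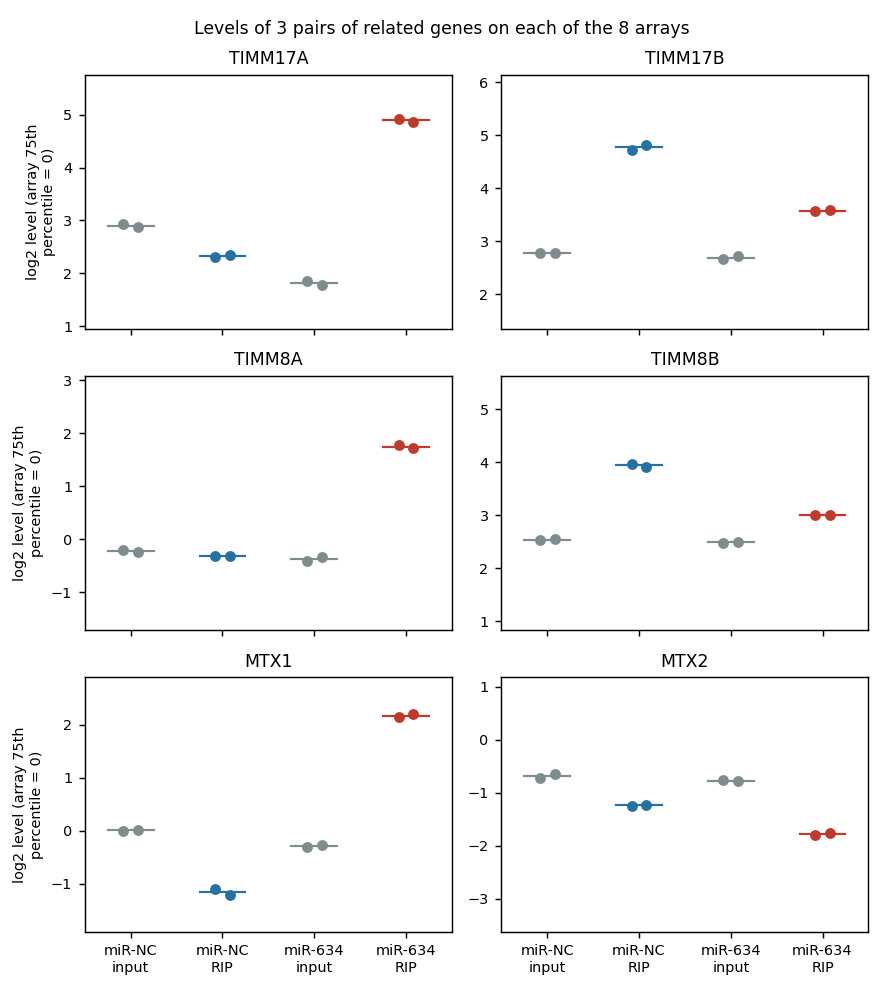
Log2 level, relative to the 75th percentile of the array, of TIMM17A, TIMM17B, TIMM8A, TIMM8B, MTX1 and MTX2 on each of the 8 arrays. Points are single arrays, lines the means of 2 arrays, and every panel spans the same log2 range. Each gene is shown by its brightest probe, and a second TIMM8A probe gave a change of enrichment of only 0.47. In the left panels the miR-634 RIP arrays stand above all others (4.92 and 4.85 for TIMM17A), while in the right panels they lie below the miR-NC RIP arrays (3.57 and 3.58 against 4.73 and 4.82 for TIMM17B); with spike-in scaling the fall in enrichment of TIMM17B shrinks to -0.03, and the values of TIMM8B and MTX2 turn to 0.19 and 0.62.

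The enrichment is a ratio, so the RIP and input changes behind it are given side by side; they share arrays with it. In the RIP, 9 members rose and 17 fell, 25.7% and 48.6%, against 30.9% and 46.5% of all genes, and the median was -0.21, beside -0.18 over all genes (with spike-in scaling, 23 rose and 1 fell). The RIP level of MTX1 rose by 3.33, that of TIMM17A by 2.56, that of TIMMDC1 by 2.27, that of TIMM8A by 2.06 and that of TOMM5 by 1.5.

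In the input, 2 members rose and 3 fell, 5.71% and 8.57%, against 11.7% and 12.1% of all genes. The median input change was -0.06, beside -0.0041 over all genes. The 3 falls were those of TIMM17A, TOMM5 and MTX1, which also had large rises of enrichment. The input of TOMM5 fell by 0.45 on the log2 scale (SE 0.08, adjusted p = 0.0127) and that of MTX1 fell by 0.30 (SE 0.05, adjusted p = 0.0107). Both calls were lost when any 1 of the 4 input arrays was left out, with adjusted p up to 0.0771 for TOMM5 and 0.0676 for MTX1, and also with no filter on dim probes (0.0741 and 0.0715), whereas that of TIMM17A held each time. With spike-in scaling the call on MTX1 was lost, although its value was lower, at -0.48 (limma, adjusted p = 0.0953). TIMMDC1 was called instead (-0.65, limma, adjusted p = 0.00934). The input of TIMMDC1 changed by -0.47 (adjusted p = 0.0537) and was called, at -0.70, without miR-NC input replicate 1, and that of TIMM8A changed by -0.15 (adjusted p = 0.0742). The input values were therefore below 0 for all 5 members with large rises of enrichment. A lower input raises the ratio by itself, and for TIMM17A the fall of 1.08 was contained in the change of 3.64. In bulk RNA, fewer cells that hold an mRNA and less of it per cell cannot be told apart.

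The 2 input rises were slight. TIMM44 read -1.70 and -1.65 on the miR-NC input arrays, -1.42 and -1.51 on the miR-634 input arrays, -1.34 on both miR-NC RIP arrays and -1.28 and -1.15 in the miR-634 RIP. Its input rose by 0.21 (SE 0.06, adjusted p = 0.0476), and the 2 input groups did not overlap. TOMM40L read -1.37 on both miR-NC input arrays, -1.19 and -1.23 on the miR-634 input arrays, -1.07 and -1.04 in the miR-NC RIP and -0.96 and -1.01 in the miR-634 RIP. Its input rose by 0.16 (SE 0.04, adjusted p = 0.0484; -0.02 with spike-in scaling). Both calls were lost when any 1 of 6 arrays was left out, that is, any input array or miR-NC RIP array, and with the filter on the input arrays only, and TIMM44 reached an adjusted p of 0.214.

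**Figure D4:**
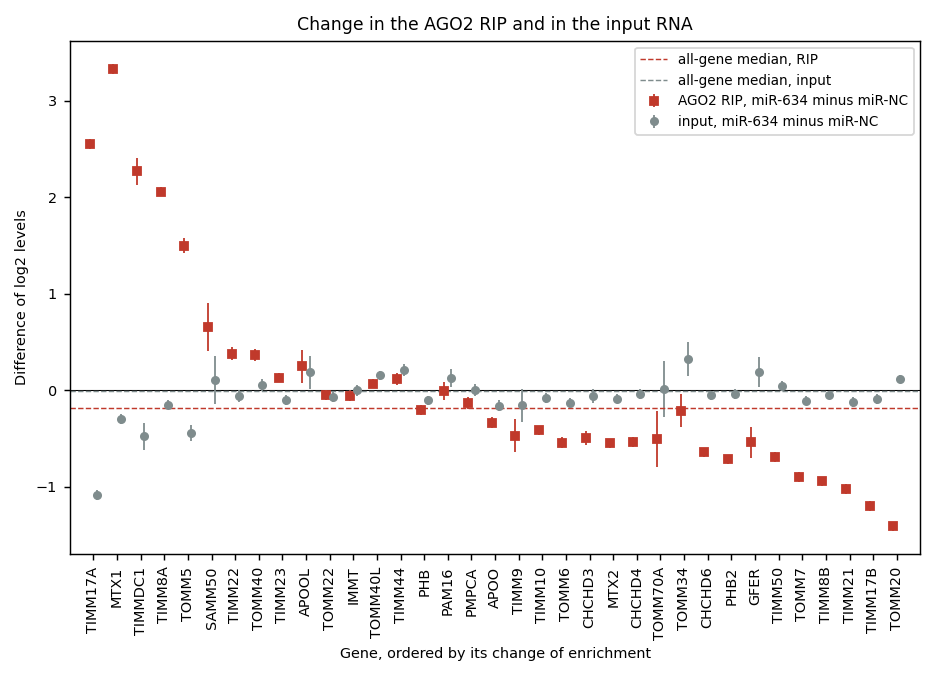
Change of the RIP level (squares) and of the input level (circles) between miR-634 and miR-NC cells on the log2 scale, with the SE from limma, for the 35 members ordered by their change of enrichment; dashed lines are the all-gene medians. Squares run from 3.33 for MTX1 down to -1.41 for TOMM20, whereas circles stay between -0.47 and 0.33 except for TIMM17A, at -1.08. With spike-in scaling all squares move up together, and 23 members rise and 1 falls in the RIP, beside 7827 and 357 of the 10956 genes.

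Where a gene had several probes well above background on all 8 arrays, they were compared. The 2 probes gave changes of nearly the same size for TIMM8B (-0.89 and -0.89), TOMM40 (0.31 and 0.28) and TIMM23 (0.24 and 0.22), and of the same direction for TOMM20 (-1.53 and -2.08), TOMM7 (-0.79 and -1.0) and TOMM34 (-0.54 and -0.24). PHB gave -0.10 and -0.47. IMMT gave -0.06 and -0.68, and its probes also stood on opposite sides in miR-NC cells, with a log2 RIP/input of -0.40 and 0.99. For TIMM8A the second probe gave 0.47 beside 2.21. With the mean of the probes in place of the brightest, 8 members rose and 17 fell, among them IMMT at -0.37, PHB at -0.28 and TOMM34 at -0.39.

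**Figure D5:**
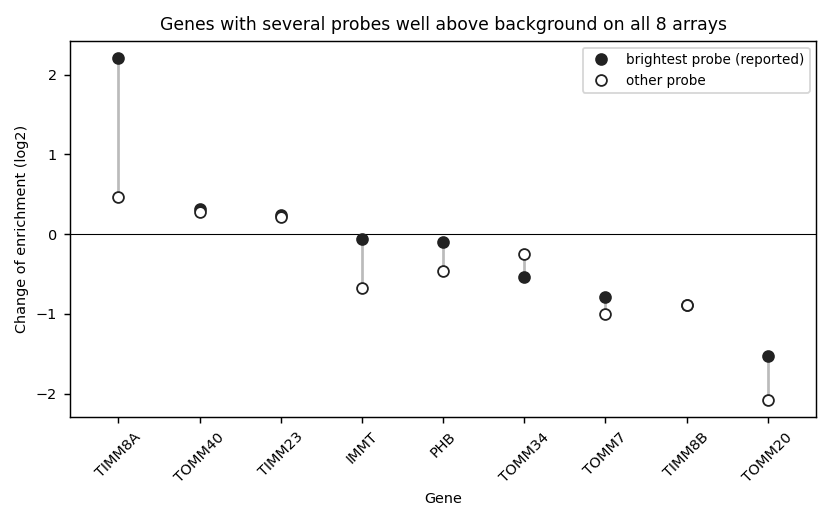
Change of enrichment on the log2 scale from each probe of the 9 members with several probes well above background on all 8 arrays; filled points are the brightest probes, which were reported, and open points the others. The probes differ most for TIMM8A, at 2.21 and 0.47, and for IMMT, at -0.06 and -0.68; with spike-in scaling all points move up by the same amount, and TOMM20 stays below 0.

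A second list held 31 other genes of import, protein processing and cristae shape, of which 28 were measured. Enrichment rose for 13 and fell for 11, against 28.1% and 43.3% of all measured genes, and the median change was 0.17, beside -0.22 over all genes (with spike-in scaling, 21 rose and 1 fell). The list was chosen with earlier results known, and AFG3L2, AGK, GRPEL1, GRPEL2, HSPD1 and XPNPEP3 are also on a list of targets that the study drew up from these arrays and a proteomic analysis, so their rises are not independent evidence. The largest rises were those of AFG3L2, a protease of the inner membrane, at 2.28, and AGK, a subunit of the TIM22 translocase, at 2.05. The nucleotide exchange factors of the import motor, GRPEL2 and GRPEL1, rose by 1.90 and 1.59, and the peptidases XPNPEP3 and MIPEP by 1.76 and 1.44. YME1L1, a protease that processes OPA1, rose by 1.60, and OPA1, which fuses the inner membrane and keeps cristae tight, by 1.05. The study names OPA1 as an already known target of miR-634 and reports less OPA1 protein in A431 cells with miR-634. The largest fall was that of ROMO1, which has been linked to the TIM22 complex, at -2.13 and still called, at -1.05, with spike-in scaling. CHCHD10, a cristae protein of the intermembrane space, and DNAJC19, which stimulates the motor chaperone HSPA9, both changed by -1.08, and by 0.0025 and 0.0048 with spike-in scaling. HSPD1, the chaperonin of the matrix, rose by 0.77, while its co-chaperonin HSPE1 changed by -1.01, or 0.08 with spike-in scaling. In the input, AGK fell by 1.2 on the log2 scale, GRPEL1 by 0.79 and OPA1 by 0.74.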

How the data were processed

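A431 cells with miR-NC or miR-634 were profiled by RIP-chip in 4 groups of 2 arrays, all on 1 slide and in 1 scan, so that no batch was fitted. The authors deposited the intensity of every spot, background-subtracted by Agilent Feature Extraction (12.0.1.1 per the file headers, 9.1 per the submitters' processing notes) and not normalized between arrays. The authors also deposited log2 values, which were found to be the log2 intensity minus the all-probe 75th percentile of the array, centered on the median of each probe. They served as an alternative.

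Outlier and control spots were removed, spots of a probe were averaged, and the 75th percentile over the 16805 probes well above background on all 8 arrays was subtracted on the log2 scale. Among probes, 33080 carried a RefSeq accession, and 31104 of them found a symbol in the RefSeq gene table. The array design was annotated on hg19, and no gene coordinates are given. limma 3.58.1 in R 4.3.3 was fitted on the 4 group means (lmFit, eBayes) over 10956 genes, with Benjamini-Hochberg adjustment over all of them and a threshold of 0.05 (a call). In simulated data for the change of enrichment over 10956 genes, 39.5% of 200 genes changed by 0.5 and 77% of 200 genes changed by 1 on the log2 scale were recovered. Only these 200 genes changed there, whereas 28.1% of genes were called higher and 43.3% lower in the data. The adjusted p depends on that share, so the simulation does not give the share of changes found or missed here. Plots were drawn with Python 3.11.15 and matplotlib 3.10.9.

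Members and lists were chosen with earlier results of these data known. Every member is named. Values on every array are given for the 5 largest called rises and falls of enrichment with the same sign in the arrays of each number, for the highest and lowest RIP/input in miR-NC cells, and for the called input changes, and single arrays of other members were added where they decided a call. The number of arrays limits the precision. A marker of other cells is not reported here.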

Additional observations from a re-analysis of the deposited data

Results flagged for a closer look

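RIP/input was called in opposite directions in the 2 kinds of cells for 5 members, and for each the change itself was called by limma, a share near that of all measured genes (8.45% from below to above the input and 6.1% from above to below). It was below the input in miR-NC cells and above it in miR-634 cells for TIMM17A (change of enrichment 3.64), MTX1 (3.63) and TIMMDC1 (2.74). It was above the input in miR-NC cells and below it in miR-634 cells for TIMM50 (-0.73) and TIMM10 (-0.34). For TIMM17A, MTX1 and TIMMDC1 the opposite sides were also found with spike-in scaling, at -3.04 and 1.68, -3.64 and 1.08, and -2.98 and 0.85. The call on TIMMDC1 in miR-NC cells was lost without miR-NC RIP replicate 2 (adjusted p = 0.0595). The changes of TIMM50 and TIMM10 were 0.35 and 0.75 with spike-in scaling. What lies behind these differences was not tested.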

How the results depend on the processing

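Spike-in scaling moves every gene by the same amount. That amount also differs between the arrays of a group. The miR-634 input arrays had mean log2 spike-in signals of 10.42 and 10.65 but 75th percentiles of 11.53 and 11.38. All genes share this difference, whereas limma treats the spread of each gene as its own, so calls with this scaling largely follow the size of the change. The amounts of RNA labelled are not given in the sources used here, so which scaling reflects them is not known. Members higher and lower were then 25 and 0 for the change of enrichment, 0 and 35 for RIP versus input in miR-NC cells, 5 and 30 for RIP versus input in miR-634 cells, and 23 and 1 for the RIP change, and 0 and 3 for the input change. In the same order, the counts over all 10956 genes were 7597 and 205, 70 and 10726, 800 and 9107, 7827 and 357, and 64 and 792. The change of enrichment turned above 0 for 22 members, namely TOMM6 (0.68), TOMM7 (0.29), TOMM34 (0.55), TOMM40L (1.0), TOMM70A (0.57), TIMM8B (0.19), TIMM9 (0.77), TIMM10 (0.75), TIMM21 (0.18), TIMM44 (0.99), TIMM50 (0.35), PAM16 (0.95), MTX2 (0.62), PMPCA (0.95), PHB (0.98), PHB2 (0.41), CHCHD4 (0.59), GFER (0.35), CHCHD3 (0.65), CHCHD6 (0.49), APOO (0.91) and IMMT (1.03). RIP versus input turned below 0 in miR-NC cells for all 14 members above 0, among them TOMM5 (-2.11), TIMM17B (-0.47), TIMM8B (-1.06), TIMM44 (-2.13) and TOMM40L (-2.16), and in miR-634 cells for 8, among them TIMM17B (-0.50), TIMM8B (-0.87), TIMM44 (-1.14) and TOMM40L (-1.16). The input change turned below 0 for 9, among them TOMM40L (-0.021), and the RIP change turned above 0 for 19, among them TOMM7 (0.0091) and TOMM22 (0.86). Relative to the all-gene median, no member moved under this scaling.

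The count of input rises, 2, became 0 with the authors' processed values, the 75th percentile over all probes, the filter on the input arrays only and no filter, and lay between 0 and 2 with each array left out. The 3 input falls became 1 with no filter and 6 with an intensity trend, and lay between 1 and 3 with each array left out; the cause was not tested. With the mean of the probes, RIP versus input of TOMM20 in miR-NC cells was 0.14 and called (limma, adjusted p = 0.031). Counts of members in the other comparisons stayed within 1.5 times under every alternative but spike-in scaling. The study's methods name a t-test in general but state none for the arrays. Run on the log2 ratios of each number, at the unadjusted threshold, it found 7 members higher and 15 lower, against 2709 and 3823 of the 10956 genes. It takes RIP and input arrays of the same number together.

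Replicate numbers were not used as pairs in the main fit. Deviations of same-numbered arrays correlated only weakly, at -0.04 to 0.08, and most for input and RIP of the same cells (0.07 with miR-NC and 0.08 with miR-634). Whether the numbers pair the arrays is not known. With the replicate block, 8 members rose and 15 fell in enrichment, 0 rose in the input, and TOMM34 was called (adjusted p = 0.0439).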
